A study of Mus musculus with 4 samples.

Results

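The heat shock chaperone genes described here are 10 genes chosen by symbol: Hspa1a, Hspa1b, Hspa8, Hsph1, Dnajb1, Bag3, Hsp90aa1, Hspb1, Hspd1 and Hspe1. Each symbol matched 1 of the 31053 genes in the feature list of every library, so all 10 were found. They were followed in single-cell RNA libraries (10x Genomics, 3′ V3 kit) of kidneys of C57BL/6 mice aged 10 weeks. FGF23 is a phosphate-regulating hormone from bone that acts on the kidney tubule. Mice received 10 µg of recombinant human FGF23 into the peritoneum, and kidneys were taken 1, 4 or 12 h later. The control library is labelled 0 h and 0 µg, although the name of its deposited matrix refers to saline at 1 h, and it is called the 0 h library here. Every library pooled kidneys of both sexes, and the number of animals in a pool is not given in the sources used here. The kidneys went through enzymatic and mechanical digestion for 30 min, red cell lysis and removal of dead cells by Annexin V before capture.

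Each time point was 1 library. No difference between times therefore had a replicate check, and FGF23, time, the animals and the digestion cannot be told apart. Intervals below are exact 95% intervals that cover counting error only. Levels are UMIs of a gene per 1000000 UMIs of the class of cells in that library (CPM).

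Heat shock proteins are chaperones that bind unfolded or partly folded proteins. The HSP70 proteins hold and refold clients in cycles of ATP hydrolysis, driven by J-domain partners such as Dnajb1 and by nucleotide exchange factors such as Hsph1 (an HSP110) and Bag3. HSP90 acts later in the folding of kinases and steroid receptors, small heat shock proteins such as Hspb1 hold unfolded clients without ATP, and the chaperonin Hspd1 with its lid Hspe1 folds proteins in the mitochondrial matrix. Under proteotoxic stress the transcription factor HSF1 binds heat shock elements, inverted repeats of a short GAA unit, in the promoters of many of these genes. Tissue dissociation itself is a known inducer of HSP70 and immediate early genes in single-cell preparations.

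Hspa1a and Hspa1b encode the stress-inducible HSP70 and are near-identical, single-exon neighbours, at chr17:34969190-34972156 and chr17:34956436-34959238 on the minus strand (GENCODE vM21, GRCm38). Reads could be split between such copies, so their sum is given beside each gene. On the opposite strand, Gm20481 covers chr17:34969912-34972136 within the span of Hspa1a, and the strand setting of the counting is not given in the sources used here. Hspd1 (chr1:55077835-55088243, minus strand, 12 exons in its longest model) and Hspe1 (chr1:55088132-55091307, plus strand) lie head to head, and their spans overlap at chr1:55088132-55088243, where reads without a strand setting could be split. Hsph1 lies at chr5:149614287-149636376, Hspb1 at chr5:135887919-135889563, Dnajb1 at chr8:83608193-83612653, Hspa8 at chr9:40800984-40810087, Hsp90aa1 at chr12:110690605-110702728 and Bag3 at chr7:128523616-128546981.

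The promoter letters are shown for the members whose levels moved most between libraries and for the shared Hspd1 and Hspe1 promoter. RefSeq windows (GRCm38.p6, 250 bases before to 50 after a start) were found for 8 of the 10 members, in 11 windows. They were searched on both strands for 2 facing units of a heat shock element, GAANNTTC or TTCNNGAA, each of which is its own reverse complement. In these letters 7 of the 8 members had a match in at least 1 window, against 15.1% of all 32851 windows in the table, and Dnajb1 had none. A run of 3 alternating units, which contains 2 overlapping matches of the shorter motif, was present for Hsph1, Hspd1 and Hspe1, against 0.603% of all windows. Members are counted by gene, some with 2 windows, and the shares are by window, so the 2 are not like for like. The Hspd1 and Hspe1 matches lie on the same stretch and are not separate. Capitals mark the matches in the sequences below, which are written 5′ to 3′ on the gene's own strand. The stretch shared by Hspe1 and Hspd1 is written on the strand of Hspe1, and Hspd1 lies on the opposite strand. A match describes letters only.
Hspa1a, chr17:34972157-34972406, minus strand: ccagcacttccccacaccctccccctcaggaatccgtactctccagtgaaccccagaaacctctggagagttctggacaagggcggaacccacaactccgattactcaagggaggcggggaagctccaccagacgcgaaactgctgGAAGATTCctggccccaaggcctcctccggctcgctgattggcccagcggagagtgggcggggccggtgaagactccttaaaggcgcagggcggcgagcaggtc
Hspa1b, chr17:34959239-34959488, minus strand: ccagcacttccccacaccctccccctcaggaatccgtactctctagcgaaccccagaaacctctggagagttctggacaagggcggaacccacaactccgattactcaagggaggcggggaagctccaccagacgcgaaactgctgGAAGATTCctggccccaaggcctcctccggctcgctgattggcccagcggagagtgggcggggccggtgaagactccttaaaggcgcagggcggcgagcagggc
Hspb1, chr5:135887772-135887859, plus strand: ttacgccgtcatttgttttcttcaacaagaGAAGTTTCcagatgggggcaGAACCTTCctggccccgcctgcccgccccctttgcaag
Hsph1, chr5:149636287-149636306, minus strand, after the start: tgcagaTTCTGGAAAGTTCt
Hspe1 and Hspd1, chr1:55088053-55088082, plus strand: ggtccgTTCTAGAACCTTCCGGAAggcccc
The Hspa1a and Hspa1b windows had the same letters at 247 of the 250 positions before the start, and both held the single match 104 bases before it. Hspb1 held matches 117 and 97 bases before its start. Hsph1 also held a match before its start, on a stretch not printed above, at 33 bases in 1 window and 54 bases in the other.

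The 4 libraries held 12245 to 13813 barcodes, and 8758 to 10131 cells per library remained after filters and doublet removal. Between any 2 libraries, 36 to 57 barcodes were shared, at most 0.465% of the smaller library. Cells were grouped into 48 clusters, named by marker genes except for 11, which held 3.56% to 4.32% of the cells of a library. Proximal tubule-like (PT) cells made up 67.6% to 71.6% of each library. The other named classes with at least 50 cells in every library were thick ascending limb-like (TAL), distal convoluted and connecting tubule-like (DCT/CNT), principal (PC), intercalated (IC), endothelial, neutrophil, B and T/NK cells. With PT cells these made 9 classes. Every marker of these 9 classes was highest in its own class, but the same markers had named the clusters, so this does not check the names. Median depth in PT cells was 10606 to 12890 UMIs, and the median mitochondrial share was 21.9%, 22.1%, 15.9% and 20.7% at 0, 1, 4 and 12 h. The summed level of 13 immediate early genes known to respond to dissociation was 1207, 1446, 801 and 518 CPM in PT cells at the same times. At 1 h 8 of the 12 with at least 100 UMIs were above 0 h, Egr1 most (21.2 to 206 CPM), and Dusp1 was lower (179 to 111 CPM). For these genes too, digestion, FGF23 and time cannot be told apart, so their sum is not a measure of digestion alone. The part of these shifts in the results below was not tested.

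In all PT cells, male-called and female-called pooled, the inducible HSP70 genes were higher at 1 h and lower at 12 h than at 0 h. Hspa1a stood at 17.6, 29.7, 21.1 and 10.5 CPM at 0, 1, 4 and 12 h, and Hspa1b at 11.8, 19.5, 18.7 and 8.83 CPM. Their sum was 1.67-fold higher at 1 h (log2 ratio 0.74, interval 0.67 to 0.81), 0.43 higher on the log2 scale at 4 h (0.36 to 0.51) and below 0 h at 12 h (-0.60, -0.69 to -0.51).

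A gene was counted as past the fold when it was at least 1.5-fold higher or lower and had at least 100 UMIs over the libraries compared, which all 10 members had in PT cells. At 1 h 2 members, Hspa1a and Hspa1b, were past the fold upward, where 1.28% of 11637 genes were, and 0 downward (1.87% of genes). At 4 h 1 member, Hspa1b, was past it upward (6.74% of genes) and 0 downward (4.48%). At 12 h 0 were past it upward (4.86%) and 2, Hspa1a and Hspb1, downward (3.99%). The members' median log2 ratio was 0.09, 0.31 and -0.15 at 1, 4 and 12 h, beside 0.01, 0.06 and 0.02 for all genes.

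The courses in cells of the 2 sexes were opposite at 4 h. A cell was called male with a UMI of a Y-linked gene (Ddx3y, Uty, Kdm5d or Eif2s3y) and none of Xist, and female with a UMI of Xist and none of these. In PT this gave 2472 to 3039 male-called and 1360 to 1882 female-called cells per library. The rest of the 6218 to 7253 PT cells of a library had no call. Male-called cells were deeper, with a median of 16085 UMIs at 0 h, against 11263 in female-called and 11991 in all PT cells. Since both sets of cells of a library shared digestion and capture but came from different animals, sex and animal cannot be told apart.

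In male-called PT cells Hspa1a plus Hspa1b stood at 19.5, 19.5, 51.2 and 19.0 CPM at 0, 1, 4 and 12 h. In female-called PT cells the pair stood at 76.3, 149, 35.0 and 35.6 CPM. The male-called cells thus had one high library, 4 h, while the female-called cells were high at 0 h, highest at 1 h and low at 4 and 12 h. The log2 ratio to 0 h in male-called cells was 1.39 at 4 h (1.29 to 1.5), against 0.00 at 1 h (-0.13 to 0.13) and -0.04 at 12 h (-0.18 to 0.10). In female-called cells it was 0.96 at 1 h (0.87 to 1.06), then -1.12 at 4 h (-1.25 to -1.0) and -1.10 at 12 h (-1.24 to -0.96). Within one library, female-called cells were above male-called cells at 0, 1 and 12 h and below them at 4 h.

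**Figure D1:**
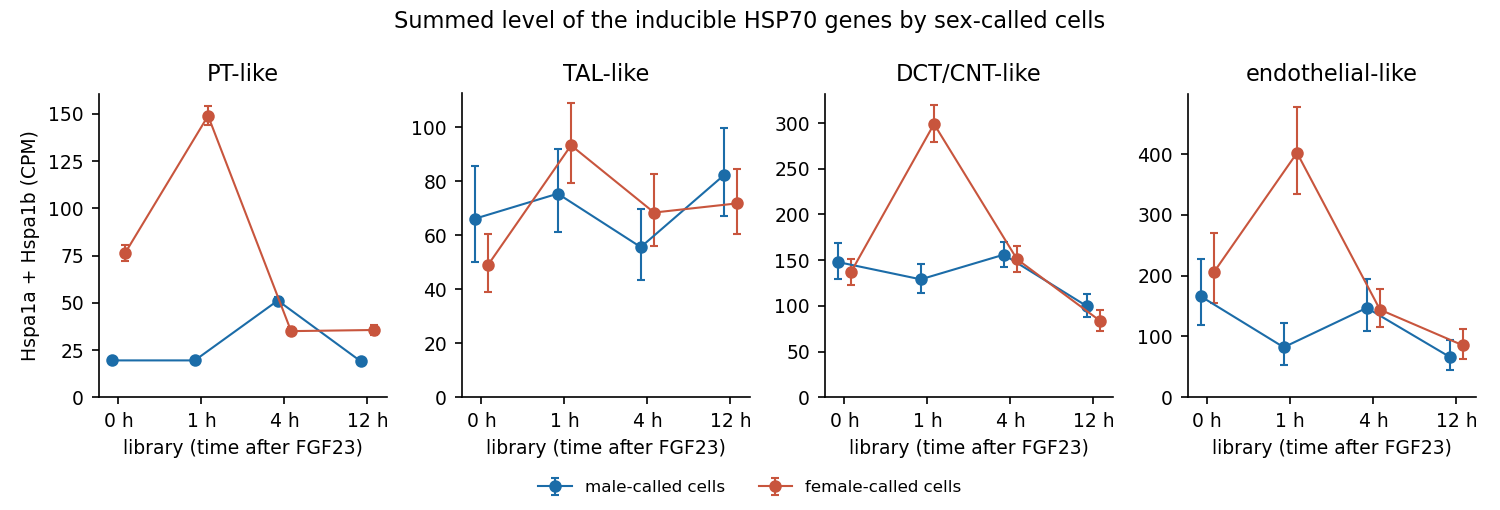
Hspa1a plus Hspa1b (CPM, linear axes from 0) in male-called and female-called cells of 4 cell classes by library, with exact 95% Poisson intervals as bars. In PT cells the male-called series peaks at 4 h (51.2 CPM) and the female-called series at 1 h (149 CPM), and in DCT/CNT and endothelial cells the female-called series also peaks at 1 h.

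Both copies followed this course. Hspa1a in male-called cells was 11.7, 12.3, 25.7 and 9.76 CPM at 0, 1, 4 and 12 h, and in female-called cells 46.3, 89.4, 22.8 and 21.0 CPM. Hspa1b in male-called cells was 7.82, 7.19, 25.5 and 9.26 CPM, and in female-called cells 30.1, 59.3, 12.2 and 14.6 CPM. At 4 h Hspa1b was 3.27-fold higher in male-called cells (log2 ratio 1.71, 1.54 to 1.88), more than Hspa1a (1.14, 0.99 to 1.28), and their intervals did not overlap.

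The rest of the cytosolic HSP70 system showed a sex-related split only in part. Dnajb1, the J-domain partner of inducible HSP70, was 23.7, 22.7, 31.9 and 22.3 CPM in male-called and 24.2, 40.5, 22.8 and 20.2 CPM in female-called PT cells. It was thus highest in the library where the HSP70 pair was highest, with a log2 ratio of 0.43 at 4 h in male-called cells (0.32 to 0.54) and 0.74 at 1 h in female-called cells (0.57 to 0.91). Unlike the pair, its level at 0 h had overlapping intervals in the 2 sets of cells. Hsph1, the exchange factor, was 54.1, 59.0, 92.0 and 52.1 CPM in male-called and 68.3, 83.8, 59.9 and 47.8 CPM in female-called cells. Its log2 ratio at 4 h was 0.77 in male-called cells (0.70 to 0.84) and -0.19 in female-called cells (-0.30 to -0.08).

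Bag3, an exchange factor that links HSP70 to autophagy, stayed within a narrow range. Its range was 10.5 to 12.7 CPM over the male-called and 8.73 to 10.9 CPM over the female-called sets. Its largest log2 ratio in male-called cells was 0.17 at 4 h (0.00 to 0.33), and in female-called cells 0.32 at 1 h (0.02 to 0.62) and 0.32 at 12 h (0.01 to 0.63). A difference at 4 h in female-called cells was not detectable at this depth (0.01, -0.29 to 0.32), and its sign turned under other scalings.

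Hspa8, the constitutive HSP70 of the cytosol, moved apart from the inducible genes in male-called cells, and in female-called cells at 1 h. At 4 and 12 h in female-called cells Hspa8 and the inducible genes were all below 0 h. In male-called PT cells it was 1349, 1073, 1115 and 1904 CPM at 0, 1, 4 and 12 h. In female-called cells it was 2095, 1812, 1099 and 1458 CPM. Hspa8 was below 0 h at 1 and 4 h in both sets of cells, at log2 ratios of -0.33 and -0.27 in male-called and -0.21 and -0.93 in female-called cells. At 12 h it was above 0 h in male-called cells (0.50, 0.48 to 0.51) and below it in female-called cells (-0.52, -0.55 to -0.50). The 0 h level was higher in female-called cells, and at 4 h the 2 sets were at nearly the same level.

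Hsp90aa1, the inducible cytosolic HSP90, was 428, 479, 707 and 358 CPM in male-called PT cells, so the 4 h library was the highest (log2 ratio 0.72, 0.70 to 0.75). In female-called cells it was 446, 428, 434 and 397 CPM, a range in which the 4 h value did not differ detectably from 0 h (-0.04, -0.08 to 0.00).

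Hspb1, the small heat shock protein HSP27, was nearly absent from PT cells. It was 1.98, 3.12, 3.66 and 1.28 CPM in male-called cells, from 51 to 182 UMIs per library, and 3.89, 1.74, 1.32 and 2.04 CPM in female-called cells, from 33 to 69 UMIs. Of the 69 UMIs at 0 h in female-called cells, 28 came from 1 cell, so the female-called ratios to 0 h rest in part on that cell. A UMI of Hspb1 was present in at most 2.66% of the PT cells of a library, against 71.4% to 82.5% of endothelial cells and 0 of 281, 233 and 227 T/NK cells at 0, 1 and 4 h (up to 1.30% to 1.61% by the exact interval), at median depths of 10606 to 12890, 2218.5 to 2435 and 2735 to 3103 UMIs.

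The mitochondrial chaperonin pair moved together and little. Hspd1 was 560, 559, 715 and 575 CPM in male-called and 492, 507, 545 and 522 CPM in female-called PT cells. Hspe1 was 860, 936, 1199 and 919 CPM in male-called and 797, 810, 867 and 867 CPM in female-called cells. At 4 h the log2 ratios were 0.35 and 0.48 in male-called and 0.15 and 0.12 in female-called cells, all with intervals above 0. The mitochondrial share of UMIs was lower in the 4 h library, at 17.2% of male-called and 20.9% of female-called PT UMIs against 22.3% and 26.2% at 0 h. Without mitochondrial genes and the members in the total, the 4 h ratios of Hspd1 and Hspe1 were 0.26 and 0.39 in male-called cells and only 0.04 and 0.02 in female-called cells.

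Counted over the list in male-called PT cells, at 1 h 1 of 10 members, Hspb1, was past the 1.5-fold limit upward (1.24% of 10919 genes) and 0 downward (1.70%). At 4 h 5 members, Hspa1a, Hspa1b, Hsph1, Hspb1 and Hsp90aa1, were past it upward (6.24% of genes) and 0 downward (5.02%). At 12 h 0 were past it upward (4.33%) and 1, Hspb1, downward (4.83%). In female-called PT cells at 1 h 3 members, Hspa1a, Hspa1b and Dnajb1, were past it upward (2.07% of 10010 genes) and 1, Hspb1, downward (1.91%). At 4 h 0 were past it upward (6.94%) and 4, Hspa1a, Hspa1b, Hspb1 and Hspa8, downward (3.43%). At 12 h 0 were past it upward (5.71%) and 3, Hspa1a, Hspa1b and Hspb1, downward (2.28%). Several of the Hspb1 calls rest on 1 cell. Without the 0 h cell with the most Hspb1 UMIs its log2 ratio in female-called cells was -0.41 at 1 h and -0.18 at 12 h, both within the limit, and -0.81 at 4 h. In male-called cells it was -0.30 at 12 h without such a cell at 0 h and 0.19 at 1 h without such a cell at 1 h, again within the limit. The members' median log2 ratio was 0.03, 0.60 and -0.06 in male-called cells and 0.17, -0.14 and -0.39 in female-called cells at 1, 4 and 12 h. For all genes these medians lay between -0.01 and 0.09.

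**Figure D2:**
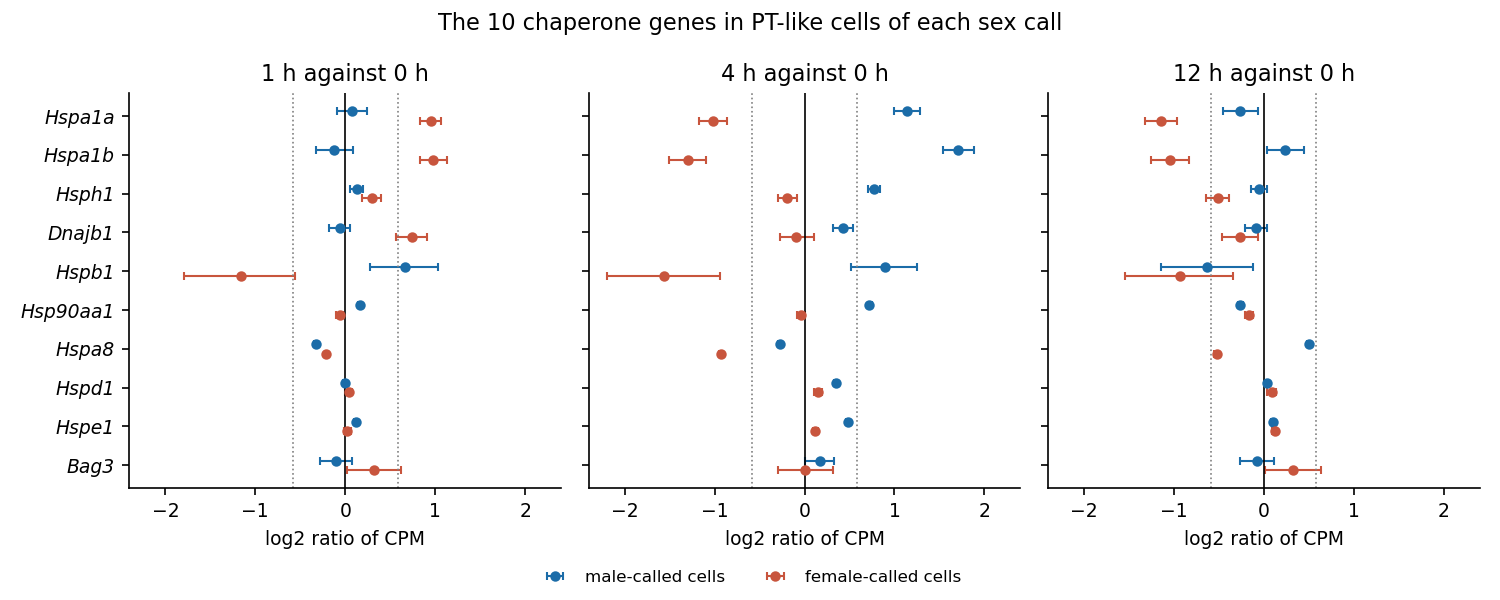
Log2 ratio of CPM to 0 h for the 10 genes in male-called and female-called PT cells, with 1 panel per time, exact 95% intervals as bars and dotted lines at 1.5-fold. At 4 h 9 of the 10 genes lie above 0 in male-called cells (all but Hspa8), and the 2 inducible HSP70 genes and Hspb1 lie on opposite sides of 0 in the 2 sets of cells.

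Both the share of cells with a UMI and the UMIs per such cell differed between libraries. A UMI of Hspa1a or Hspa1b was found in 18.9%, 30.0%, 11.5% and 12.1% of female-called and 11.8%, 10.8%, 20.1% and 10.4% of male-called PT cells at 0, 1, 4 and 12 h. After each cell was thinned to 2000 UMIs, with 9 to 59 shallower cells left out per set, the shares were 8.55%, 14.6%, 5.19% and 4.94%, and 3.1%, 3.05%, 7.14% and 2.86%. Cells with a UMI held on average 4.89, 6.88, 4.05 and 4.02 UMIs of the pair in female-called and 2.71, 3.17, 4.23 and 2.93 in male-called cells. The lowest unthinned shares in any class were in neutrophil-like cells, at 0% to 1.53% with median depths of 1509 to 1725 UMIs. Over single PT cells Hspa1a and Hspa1b correlated at Pearson r of 0.18 to 0.34 across the male-called sets and 0.36 to 0.54 across the female-called sets. Hspd1 and Hspe1 correlated at 0.34 to 0.47, while Hspa1a correlated with Dnajb1 and Hsph1 at -0.02 to 0.12. These r values describe sparse counts of cells that share a library.

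Hspa1a plus Hspa1b was 18.8, 17.0, 64.0 and 21.8 CPM in male-called S3-like cells and 20.5, 22.1, 39.2 and 17.2 CPM in male-called S1/S2-like cells. The log2 ratios at 4 h were 1.77 (1.63 to 1.91) and 0.93 (0.77 to 1.10), and their intervals did not overlap. The S3-like value compares different clusters, since different clusters held most S3-like cells in different libraries. Cluster 1 held 1398, 1015, 136 and 75 cells and cluster 4 held 152, 214, 1011 and 673 cells at 0, 1, 4 and 12 h. Within cluster 1 the pair was 17.7, 13.9, 32.2 and 6.06 CPM, and within cluster 4 it was 19.1, 45.8, 70.7 and 23.3 CPM, so 4 h was the highest library in each. Within single clusters under 10% female and with at least 100 UMIs the 4 h ratio was 0.86, 1.89 and 0.80 in S3-like clusters 1, 4 and 24 and 1.04 in S1/S2-like cluster 5, so in 1 of the 3 S3-like clusters was it above that of the S1/S2-like one. Female-called S3-like cells gave 19 to 196 UMIs per library, with 100, 266, 23.1 and 14.4 CPM, the same order of the first 3 libraries as in S1/S2-like cells.

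The opposite courses also appeared in clusters made up almost wholly of cells called 1 sex, but not in every mixed cluster. Among PT clusters with at least 100 UMIs of the pair over the libraries compared, all 4 clusters whose sex-called cells were under 10% female had a log2 ratio above 0 at 4 h (0.80 to 1.89). Clusters 0, 7 and 8, also under 10% female, had fewer UMIs and were left out. Their ratios were 1.31, 1.30 and -0.52 (-1.56 to 0.53 for cluster 8). All 3 clusters over 90% female were below 0 (-2.13 to -0.92). Of 4 clusters in between, 3 were above 0, namely cluster 27 at 1.89 (66.6% female), cluster 10 at 0.49 (59.8%) and cluster 2 at 0.44 (34.6%), and cluster 11 was at -1.06 (46.8%). Cluster 27 passed the UMI limit mainly through 4 h, which gave 305 of its 374 UMIs. Clusters 12, 13, 16 and 19, also in between, had fewer UMIs and were left out. The first 3 of these had ratios of -0.65, -1.39 and -1.23, with intervals that included 0. Cluster 19 had 9.07 CPM at 0 h and 0 at 4 h. At 1 h the 3 female clusters were above 0 (1.09 to 1.28), and 1 of the 4 male clusters was (-1.12 to 1.26). Hsp90aa1 at 4 h was above 0 in 7 of 7 male clusters (0.67 to 0.82) and between -0.10 and 0.14 in the 3 female ones. Hspa8 at 12 h was above 0 in 7 of 7 male clusters (0.15 to 0.48) and below 0 in 3 of 3 female ones (-0.65 to -0.44). At 4 h Hspa8 was below 0 in all 18 PT clusters. Clusters were formed on these cells, so they are no replicates.

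**Figure D3:**
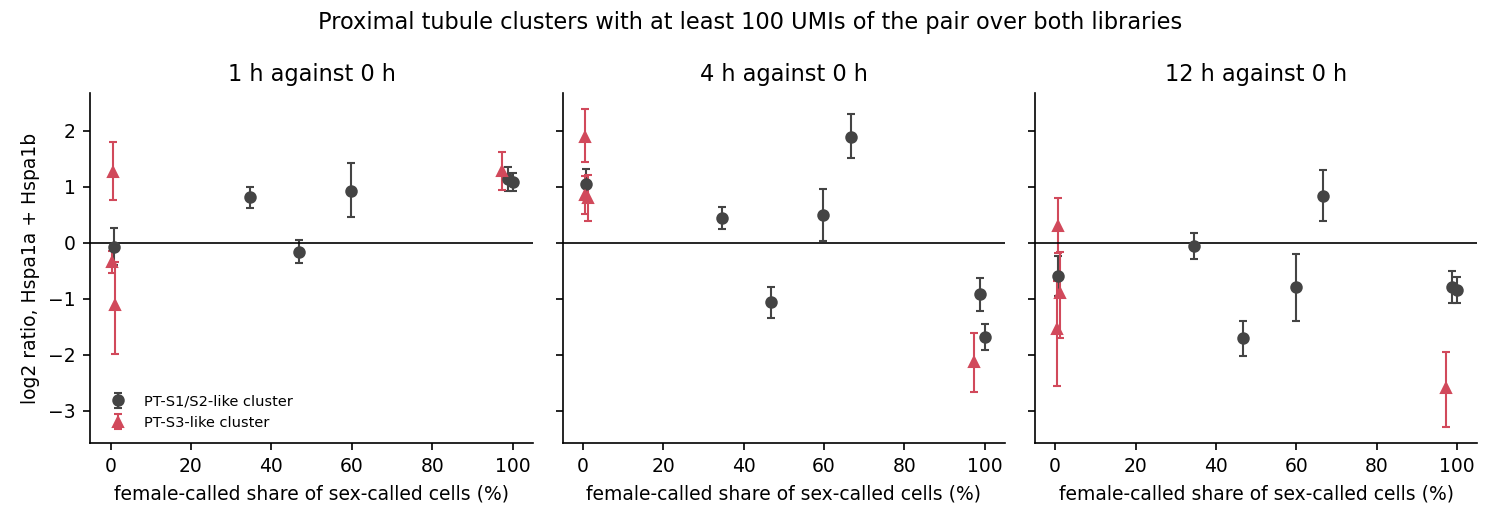
Log2 ratio of Hspa1a plus Hspa1b to 0 h in each PT cluster, against the share of its sex-called cells that were female (%), for 1, 4 and 12 h. Circles are S1/S2-like and triangles S3-like clusters, with exact 95% intervals as bars. At 4 h, among clusters with at least 100 UMIs, those under 10% female lie between 0.80 and 1.89, those over 90% female between -2.13 and -0.92, and the 4 in between from -1.06 to 1.89.

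Cluster 27, S1/S2-like cells of low depth (median 1635 to 2004 UMIs), had the pair at 184, 112, 682 and 329 CPM. It held 80 to 181 cells per library. Without it the log2 ratio at 4 h was 0.36 in all PT cells and -1.29 in female-called cells.

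Markers and stress genes that moved beside the sex-called values were as follows. The 13 dissociation genes summed to 1412, 1471, 741 and 519 CPM in male-called and 1164, 1889, 1248 and 754 CPM in female-called PT cells. Their highest library was 1 h in both sets of cells. In female-called cells this was also the highest library of the HSP70 pair. In male-called cells Hspa1a and Hspa1b had log2 ratios of only 0.07 and -0.12 at 1 h. The dissociation genes were low in male-called cells of the 4 h library, where the pair was high. At 1 h in female-called cells 10 of the 12 with at least 100 UMIs were above 0 h, Egr1 most (14.9 to 208 CPM). Their part in the results was not tested. Summed neutrophil markers in PT cells were 13.2, 7.93, 2.26 and 1.49 CPM, and summed endothelial markers 3.17 to 6.30 CPM.

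In the distal nephron the same 1 h difference was seen in female-called cells. In DCT/CNT cells, which carry Klotho and respond to FGF23, Hspa1a plus Hspa1b was 137, 299, 151 and 83.6 CPM in female-called and 148, 129, 156 and 99.7 CPM in male-called cells. The log2 ratio at 1 h was 1.13 in female-called cells (0.95 to 1.31) and -0.19 in male-called cells (-0.46 to 0.08). At 12 h both sets were below 0 h (-0.71, -0.96 to -0.46, and -0.57, -0.84 to -0.30). Unlike in PT, the pair in male-called DCT/CNT cells was not detectably higher at 4 h (0.08, -0.16 to 0.31). Dnajb1 in DCT/CNT cells was 22.5 CPM at 0 h and 41.4 CPM at 1 h (0.88, 0.55 to 1.21), and its level at 4 and 12 h was not detectably different from 0 h.

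Hspb1 in DCT/CNT cells was 18.9 CPM at 0 h and 7.23 CPM at 12 h (-1.39, -1.93 to -0.87), with log2 ratios of -0.13 at 1 h (-0.55 to 0.29) and 0.40 at 4 h (0.04 to 0.77). Hspe1 in DCT/CNT cells was 349, 345, 459 and 317 CPM, highest at 4 h. At 1 h 2 of 10 members, Hspa1b and Dnajb1, were past the 1.5-fold limit upward in DCT/CNT cells (2.12% of 7594 genes) and 0 downward (1.58%). At 4 h 0 were past it in either direction (6.35% of genes upward, 7.47% downward). At 12 h 0 were past it upward (4.81%) and 2, Hspa1a and Hspb1, downward (5.25%). The dissociation genes summed to 1328, 2231, 1506 and 830 CPM in DCT/CNT cells, highest at 1 h as well. They did not move as 1 group. At 1 h 9 of the 13 were above 0 h, Egr1 most (41.1 to 455 CPM). Fos (-0.55), Fosb (-0.70), Jun (-0.45) and Dusp1 (-0.40) were below it.

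Principal cells of the collecting duct, 76 to 150 per library, had the highest inducible HSP70 of the tubule. The pair was 464, 958, 483 and 366 CPM, with a UMI in 89.6%, 96.1%, 90.7% and 78.2% of cells. Its log2 ratio at 1 h was 1.05 (0.88 to 1.21), and 194 of its 942 UMIs at 1 h came from 1 cell, without which the level was 761 CPM. Hsph1 was 151, 371, 194 and 118 CPM (1.30 at 1 h, 1.02 to 1.58), whereas Dnajb1 was 75.0, 41.7 and 34.7 CPM at 0, 1 and 4 h with a log2 ratio to 0 h of -1.58 at 12 h (-2.24 to -0.96). Hspb1 was 151, 415, 122 and 149 CPM, and 146 of its 408 UMIs at 1 h came from 1 cell, without which it stood at 267 CPM. At 1 h 4 of the 9 members with at least 100 UMIs, Hspa1a, Hspa1b, Hsph1 and Hspb1, were past the 1.5-fold limit upward (4.90% of 3283 genes) and 1, Dnajb1, downward (3.90%). The dissociation genes summed to 4774, 4622, 4170 and 2449 CPM in PC cells, highest at 0 h. Endothelial cells had 4177, 3645, 3474 and 2408 CPM, also highest at 0 h. TAL and IC cells were highest at 1 h, at 650 and 1508 CPM, against 443 and 1494 CPM at 0 h. The part of these genes was not tested.

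In TAL cells Hspa1a plus Hspa1b was 55.9, 87.3, 63.0 and 75.2 CPM, and 0.64 above 0 h on the log2 scale at 1 h (0.37 to 0.92). Female-called TAL cells gave 49.0 CPM at 0 h and 93.3 at 1 h, and male-called ones 66.1 and 75.4, a difference not detectable at this depth (0.19, -0.30 to 0.69). Hspb1 in TAL cells was 4.48, 9.92, 36.1 and 7.98 CPM, but 107 of the 129 UMIs at 4 h came from 1 cell, and without it the 4 h level was 6.16 CPM. In IC cells the pair was 161, 154, 124 and 133 CPM, with no detectable difference at 1 h (-0.06, -0.34 to 0.22).

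Endothelial cells, the class with the highest Hspb1, had it at 928, 890, 1421 and 733 CPM. The 4 h level was high in male-called cells, where Hspb1 was 696, 863, 2030 and 714 CPM (1.54 at 4 h, 1.29 to 1.80), while female-called cells had 1218, 941, 923 and 805 CPM. The inducible HSP70 pair in endothelial cells was 206, 402, 144 and 85.3 CPM in female-called and 166, 82.2, 147 and 66.3 CPM in male-called cells, from 24 to 126 UMIs per library. At 1 h it was above 0 h in female-called (0.96, 0.49 to 1.45) and below it in male-called cells (-1.02, -1.82 to -0.24).

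Neutrophil-like cells had almost none of the pair, with 4 and 6 UMIs at 0 and 1 h and 0 at 12 h, which allows up to 31.7 CPM there. At 4 h 1 of 77 cells held all 114 UMIs, 47 of Hspa1a and 67 of Hspa1b, among its 1182 UMIs in all. That single cell set the class level at 850 CPM, and without it the level was 0. T/NK cells had 16.9, 39.7, 25.3 and 27.5 CPM of the pair, from 15 to 38 UMIs, with 1.23 at 1 h (0.29 to 2.23), and B cells had 44.4, 76.3, 77.2 and 37.1 CPM.

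The order of classes differed by gene. The pair was highest in PC cells in every library once the single neutrophil-like cell was set aside, followed at 0 h by IC, endothelial and DCT/CNT cells, whose neighbouring intervals overlapped. Hsph1 and Hsp90aa1 were also highest in PC cells in all 4 libraries, with no interval overlapping the next class. Hspd1 and Hspe1 were highest in PT cells in all 4 libraries, at 546 to 659 and 866 to 1111 CPM, above the next class without overlap. Hspa8 was highest in PT cells at 0 and 12 h and in T/NK cells at 1 and 4 h. Bag3 was highest in endothelial or TAL cells, whose intervals overlapped with each other and with PC cells, and it had 0 to 5 UMIs per library in the lymphoid and neutrophil classes. Dnajb1 was highest in PC cells at 0 h, in B cells at 1 h and in T/NK cells at 4 and 12 h, each overlapping the next class. It was lowest in TAL cells at 0, 1 and 4 h, at 12.5, 19.0 and 16.2 CPM, below the next class without overlap at 0 and 1 h, and in DCT/CNT cells at 12 h.

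**Figure D4:**
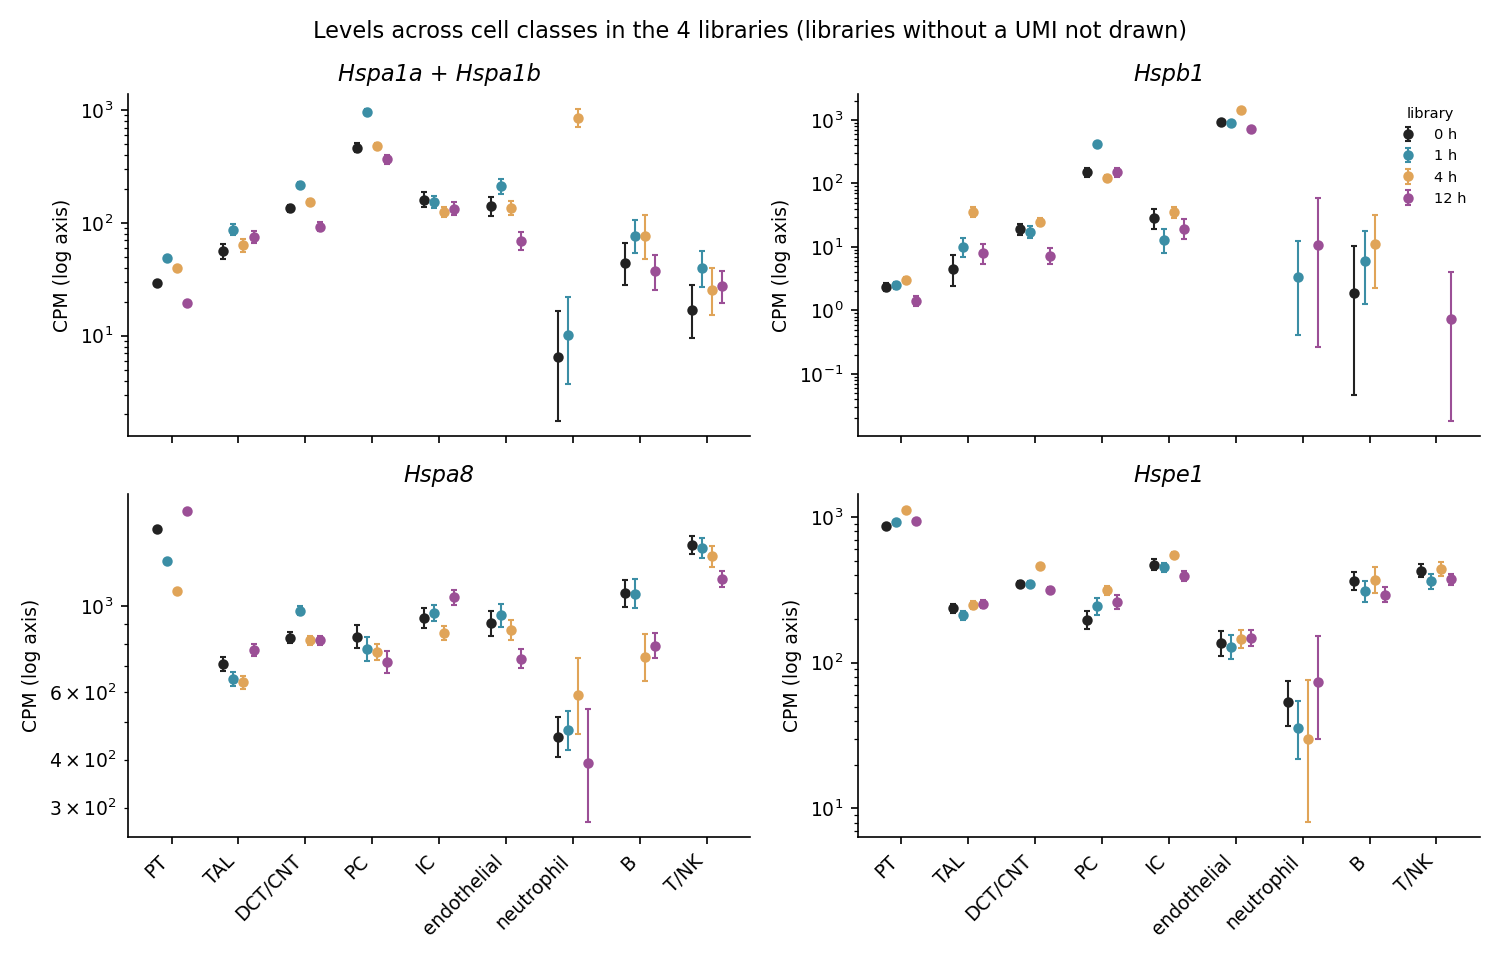
Level (CPM, log axis) of Hspa1a plus Hspa1b, Hspb1, Hspa8 and Hspe1 in 9 cell classes, with 1 point per library and exact 95% Poisson intervals as bars. The HSP70 pair is highest in PC cells apart from the 4 h neutrophil point, which is 1 cell (850 CPM), Hspb1 is highest in endothelial cells (733 to 1421 CPM), and Hspe1 in PT cells.

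The wider chaperone network was described by lists of 77 other genes found in the data, of which 68 to 72 had at least 100 UMIs in a PT comparison. In male-called PT cells 18 of 70 were past the 1.5-fold limit upward and 1 downward at 4 h, and their median log2 ratio was 0.31. In female-called cells 5 of 69 were past it upward and 3 downward (median 0.14). Without mitochondrial genes and the members in the total, the 4 h counts were 11 upward and 3 downward in male-called cells and 3 and 4 in female-called cells. At 1 h the counts were 1 upward and 3 downward in male-called and 3 and 0 in female-called cells, and at 12 h 1 and 3, and 1 and 6, among 68 to 70 genes. These counts stand beside the shares of all genes given above for the same comparisons.

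Chaperones of the endoplasmic reticulum, which serve secreted and membrane proteins and are controlled by the unfolded protein response, made up most of the male-called 4 h count. In male-called PT cells 11 of 15 were past the limit upward (median 0.68). Without mitochondrial genes and the members in the total, 8 of the 15 were past it. Hspa5, the luminal HSP70 BiP, was 325 CPM at 0 h and 658 at 4 h in male-called cells (1.02, 0.99 to 1.05) and 460 and 434 CPM in female-called cells (-0.08, -0.13 to -0.04). Sdf2l1 was 12.8 and 34.0 CPM in male-called (1.41, 1.28 to 1.55) and 31.5 and 29.5 CPM in female-called cells (-0.10, -0.26 to 0.07). In female-called cells 0 of 15 were past the limit, with a median of 0.02 that was -0.08 or -0.06 under 2 other scalings. Xbp1, a transcription factor of the same response, was higher at 4 h in both, at 78.2 and 263 CPM in male-called and 81.5 and 220 CPM in female-called cells.

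Among partners of HSP70 and HSP90, Dnaja1 followed the male-called 4 h difference, at 464 and 731 CPM in male-called (0.65, 0.63 to 0.68) and 407 and 421 CPM in female-called cells (0.05, 0.00 to 0.09). Of 12 HSP90 genes and cochaperones, 2 were past the limit upward at 4 h in male-called cells, and 1 without mitochondrial genes and the members in the total, under which Dnaja1 and the other J-domain partners gave 0 of 9. In female-called cells 1 was past it upward and 1 downward. The former was Fkbp5, a glucocorticoid-induced cochaperone, at 11.9, 35.0, 57.3 and 10.7 CPM from 0 to 12 h in female-called cells, against 48.8, 39.1, 39.9 and 33.2 CPM in male-called cells. Fkbp5 in female-called cells thus had its own course, with its highest value at 4 h, where the HSP70 pair was low. Of 4 small heat shock protein genes with enough UMIs, Cryab was 60.7, 29.1, 107 and 13.5 CPM in male-called and 55.4, 40.1, 84.9 and 118 CPM in female-called cells. Ddit3, a stress factor, was 10.1 and 15.6 CPM at 0 and 1 h in male-called and 14.6 and 47.1 CPM in female-called cells. It was highest at 1 h in both, which in male-called cells was not the library where the pair was highest.

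Hsf1, the master regulator of the heat shock response at the protein level, was at 12.2, 12.3, 13.6 and 11.6 CPM in PT cells. None of the 3 HSF genes, the 7 measured TRiC chaperonin genes or the 7 measured HSP70 cochaperones was past the limit in pooled PT cells at any time. Of all genes 1.28% to 6.74% were past it in a given direction, so lists this short could give 0 without differing from other genes. In male-called PT cells 1 of the 7 HSP70 cochaperones was past it upward at 4 h (6.24% of genes), and 0 without mitochondrial genes and the members in the total. The TRiC genes had a median log2 ratio of 0.28 at 4 h and 0.19 at 12 h in PT cells. Among 8 HSP70 and HSP110 family genes, Hspa2 was lower at 4 h (-0.66, -0.92 to -0.40), and Sqstm1, the autophagy receptor, was 138 and 219 CPM at 0 and 4 h in PT cells.

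Genes outside these lists were ranked by likeness to the mean course of Hspa1a, Hspa1b, Dnajb1 and Hsph1, as Pearson correlation over classes and libraries with each class centred on its own mean. Over 36 points of 9 classes the nearest of 6359 genes were Dnm1l (r = 0.85), Nop58 (0.84), Zfp410 (0.81), Fam133b (0.80) and Ankrd54 (0.79). This order rested on the neutrophil-like class, where these 5 genes had 2 to 6 UMIs at 4 h and all UMIs of Hspa1a and Hspa1b at 4 h came from 1 cell. Without that class their r was 0.38 to 0.60. Over the other 32 points the nearest were Ankrd11 (0.82), Ccnl1 (0.75), Ccnt2 (0.71), Rnps1 (0.71) and Brd2 (0.70). The points share libraries and depth, and 4 points of a class are not independent.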

How the data were processed

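Single-cell libraries of mouse kidney, 1 per time point, were read as the deposited counts: unnormalised UMI counts for each gene in each barcode of filtered matrices. Cell Ranger 3.1.0, STAR, Seurat and the build mm10 are named per the submitters' processing notes, with no role given, and the annotation is not given in the sources used here. Total counts were 139675666 to 158838728 UMIs per library. Barcodes with under 300 genes or over 50% mitochondrial UMIs were left out, as were 719 to 989 barcodes per library called as doublets by their share of simulated doublets among 30 nearest neighbours. Cells of all libraries were clustered together (2000 variable genes plus markers, 30 principal components, Leiden resolution 1.5, leidenalg 0.10.2, scikit-learn 1.9.0, scipy 1.17.1). Clusters were named from the markers, with naming thresholds set after the clusters were seen. For each class of each library, summed UMIs were divided by the class total (CPM). Ratios have exact conditional binomial, levels Poisson and shares Clopper-Pearson 95% intervals. No test was possible with 1 library per group, and the calculation of ratios was tested on simulated data.

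The 10 members and the gene lists were chosen with earlier results of these data known. Genes named besides the members came from those with the largest or smallest ratios of their list among genes with at least 100 UMIs, and from the genes outside the lists with the most similar pattern. Not every list had both ends named, and no TRiC or HSP70 cochaperone gene was. Among J-domain partners, Dnajb4 was lower at 4 h in female-called PT cells (-0.66, -0.81 to -0.50). Hspa5, Hsf1 and Sqstm1 and the values of a gene in the other sex or at other times were added after their values were seen. Alternatives were the mitochondrial limit, doublets kept, 1000 genes per cell, equal weight per cell, other scalings, sex-called cells, resolution 0.8, and other folds and UMI minimums. Those on the sex-called values, the removal of the top cell (in every library, at 0 h alone or later alone), of cluster 27 and of the neutrophil-like class were chosen after seeing the data.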

Additional observations from a re-analysis of the deposited data

Results flagged for a closer look

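In PT-like cells 4 ratios to 0 h had opposite signs in the cells called male and those called female, each at least 1.5-fold. Hspa1a at 4 h had a log2 ratio of 1.14 in male-called cells and -1.02 in female-called cells, a female minus male difference of -2.15. Hspa1b at 4 h had 1.71 and -1.30, a difference of -3.01. Hspb1 had 0.66 and -1.16 at 1 h, a difference of -1.82, and 0.89 and -1.56 at 4 h, a difference of -2.44. Hspb1 rests on few UMIs, and 28 of the 69 in female-called cells at 0 h came from 1 cell. Without that cell the female-called ratios were -0.41 at 1 h and -0.81 at 4 h, and without the 1 h cell with the most UMIs the male-called ratio at 1 h was 0.19. With 1 library per time, each set of cells came from its own animal or animals in each library, and these differences between the sexes were not tested.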

How the results depend on the processing

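With 1 library per group and unknown animals per pool, counting error is the only error measured, and genes under about 100 UMIs in a class, such as Hspb1 in PT cells, are limited by depth. No paired analysis was possible because each group had 1 library. Main values and counts moved by less than their interval or stayed within 1.5 times in 157 comparisons with an alternative, moved further in 37 and reversed in 1. A reversal was counted only where the main ratio was itself past 1.5-fold with at least 100 UMIs. Sign changes of smaller ratios are among the 37, such as that of the pair at 4 h in female-called cells (0.43 to -1.12). The log2 ratio of Hspa1a plus Hspa1b in PT cells was 0.74 at 1 h, with 0.96 in female-called and 0.00 in male-called cells. At 4 h (0.43) it was 0.26 with equal weight per cell, 0.34 without mitochondrial genes and members in the total, 0.36 without cluster 27, 1.39 in male-called cells and -1.12 in female-called ones. At 12 h (-0.60) it was -0.47 at 25% mitochondrial UMIs, -0.04 in male-called cells and -1.10 in female-called ones.

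Members past 1.5-fold upward in PT cells at 1 h (2) were 1 in male-called cells and 0 at a fold of 2, and downward (0) 1 in female-called cells. At 4 h upward (1) they were 0 with equal weight, without mitochondrial genes, in female-called cells and at a fold of 2, and 5 in male-called cells and at a lower fold. At 4 h downward (0) they were 1 at 25% mitochondrial UMIs, with equal weight, without mitochondrial genes, with median-of-ratios scaling and at a lower fold, and 4 in female-called cells. At 12 h downward (2) they were 1 with equal weight and in male-called cells and 0 at a fold of 2. Other chaperone genes past it upward at 1 h (1) were 2 with a minimum of 20 UMIs.

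For the pair in male-called cells, 4 h (1.39) was 1.18 with equal weight and 0.93 in S1/S2-like cells, and 12 h (-0.04) was 0.10 at 25% mitochondrial UMIs and -0.26 in S1/S2-like cells. In female-called cells, 4 h (-1.12) was -1.29 at 25% mitochondrial UMIs and without cluster 27 and -0.76 with equal weight, and 12 h (-1.10) was -0.88 with equal weight and -1.25 without cluster 27. No alternative run on the sex-called pair at 4 h changed the sign in either sex.

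Single genes that reversed were Hspa1b in PT cells at 1 h in male-called (-0.12) and at 4 h in female-called cells (-1.30), Dnajb1 at 1 h and Hspa1a at 12 h in TAL cells at 25% mitochondrial UMIs (both -0.30), Hspa1a at 1 h in male-called endothelial cells (-1.64), Hspb1 at 4 h in female-called endothelial cells (-0.40), and Hspb1 at 1 h in male-called S1/S2-like cells (-0.25). This list holds only ratios that were past 1.5-fold with at least 100 UMIs before the alternative. Smaller ratios that changed sign are not in it. In PT cells at 4 h these included Hspa1a (0.26 in all and -1.02 in female-called cells), Hspb1 (0.34 and -1.56) and Hsph1 (0.49 and -0.19). Dnajb1 (0.29 and -0.09) and Hsp90aa1 (0.52 and -0.04) were others. The cause was not tested.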
